A study of Paralichthys olivaceus with 24 samples.

Results

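In the spleen of Japanese flounder (Paralichthys olivaceus), 16 microarray probes were at least 1.5 log2 units higher after poly(I:C) than after water at 3 h and 25 °C, while poly(I:C) and water differed by less than 0.5 in each of the other 3 settings (15 °C after 3 h, 15 °C after 24 h and 25 °C after 24 h). They were selected on the means of the deposited log2 values, from 13026 probes whose contig code starts with JFC and for which some group had all 3 arrays well above background. The same values give their 4 poly(I:C) changes, so these are a description and carry no test. The change at 3 h and 25 °C alone reached 1.5 in 515 probes (3.95% of the 13026), and all limits together were met by 0.123%. Although the selection reads as an induction seen only in warm fish at 3 h, a low level in the water fish at 3 h and 25 °C contributed between 17.9% and 93.2% of the difference, without a clear break between probes. Measured from the mean of the 6 other groups, most of them at 15 °C, the low level was the larger contribution in 7 probes. A high level in the poly(I:C) fish was the larger one in 9. Of these 9, 7 had arrays well above background in both groups at 3 h and 25 °C. The percentages and this split depend on that reference. The probes are described on either side of equal contributions, a division made for description only.

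The study asked how temperature alters the transcriptional response to poly(I:C). Spleen RNA was hybridised to 24 single-colour (Cy3) Agilent arrays, in 8 groups of 3. Fish were treated with poly(I:C) or, as controls, with DEPC-treated water, and were kept in cool (15 °C) or warm (25 °C) water until sampling after 3 h or 24 h, in every combination. The labels give no strain, age, sex, dose or route, nor do they state whether every array came from its own fish, so the spread between arrays of a group may be partly technical. In bulk RNA from spleen, fewer cells of a type and less RNA per cell cannot be told apart.

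Poly(I:C) is a synthetic double-stranded RNA that mimics a product of viral replication. In vertebrates such RNA is sensed by Toll-like receptor 3 in endosomes and by RIG-I-like receptors in the cytoplasm, which switch on type I interferon and, through it, a wide set of antiviral genes. In bony fish the spleen is a main secondary lymphoid organ. Fish are ectotherms, so the water sets the temperature at which these pathways run.

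The files name the target of each probe only by a contig code, and none of the 16 contigs could be found in NCBI's gene table for the assembly ASM2471397v2, so no gene, cell type or pathway is assigned to them. For the same reason the lists of interferon genes and of spleen cell markers, and the check of the tissue against its markers, could not be used, and no probe sequence is shown. The 16 probes targeted 16 different contigs, and no other probe on the array had any of these targets. Of the 351 tested probes for targets with other codes, 0 met the same limits. The probes lay between rows 10 and 190 of 192 and columns 14 and 79 of 82 on the array, with the closest pair 3 spots apart.

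Levels below are log2 of the processed signal relative to the 75th percentile of the same array, which was 348.1 to 863.5 units. A level is compared only with levels of the same probe, since probes differ in how brightly they bind. Of the 16, 12 were well above background on all 24 arrays and 0 were saturated on any. The exceptions were JFC23926 (23 arrays), JFC04672 (19), JFC07865 (14) and JFC16050, which was measurable on only 8.

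Across the 16 probes the change at 3 h and 25 °C ran from 1.53 (2.88-fold) to 2.40 (5.28-fold), with a median of 1.66, and 13 of them lay below 2. The median change of all tested probes there was -0.15. In the other settings the medians of the 16 were 0.052 (15 °C, 3 h), 0.17 (15 °C, 24 h) and -0.057 (25 °C, 24 h). The change of JFC16050 at 3 h and 15 °C (0.40) was not a measured one, since neither group had an array with that probe well above background.

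**Figure D1:**
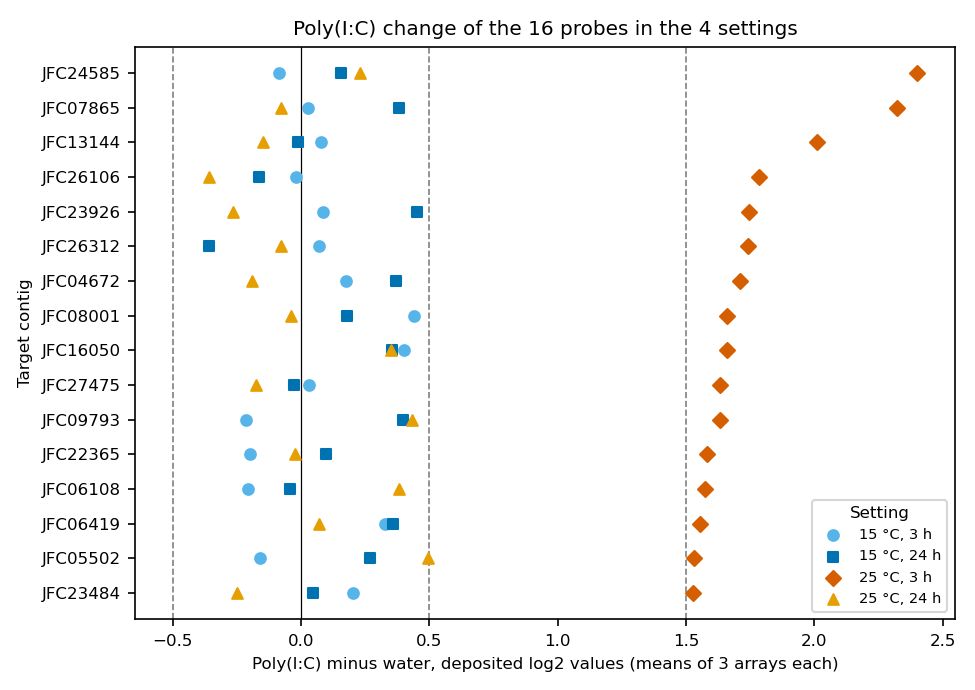
Poly(I:C) minus water in deposited log2 values (x axis, difference of means of 3 arrays each) for the 16 target contigs (y axis), with 1 symbol per setting and dashed lines at the limits of -0.5, 0.5 and 1.5. The diamonds for 3 h and 25 °C lie between 1.53 and 2.40, and the symbols for the other 3 settings lie within 0.5 of 0, as the selection required.

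The selection was narrow at each limit. Just inside at 3 h and 25 °C was JFC23484 (1.53), and just outside was JFC02644 (1.48). JFC08001 lay nearest to the limit at 3 h and 15 °C (0.44), and JFC01911 (-0.50) fell just beyond it, although its change of 3.58 at 3 h and 25 °C exceeded that of every selected probe. At 24 h and 15 °C the nearest were JFC23926 (0.45) inside and JFC25507 (-0.53) outside, and at 24 h and 25 °C JFC05502 (0.49) inside and JFC02540 (-0.55) outside. Of the 515 probes past 1.5, 469 were outside the limit at 24 h and 15 °C, 225 at 3 h and 15 °C, and 244 at 24 h and 25 °C. The setting at 24 h and 15 °C was the only limit missed by 146 of them, against 11 and 10 for the other settings.

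To see where each difference arose, the levels in both groups at 3 h and 25 °C were set against the mean of the other 6 groups. In the 16 probes the poly(I:C) group stood above that mean by a median of 0.90 (range 0.12 to 1.59), and the water group stood below it by a median of 0.84 (range 0.30 to 1.63). In the other 499 probes past 1.5 the corresponding medians were 1.77 and 0.55. The shortfall in water exceeded the excess in poly(I:C) in 7 of the 16 and in 43 of the 499 (8.62%). Poly(I:C) at 3 h and 25 °C was the highest of the 8 groups in 13 of the 16. This held for 53.5% of the 499 and for 15.4% of all tested probes. Water at 3 h and 25 °C was the lowest in 11 (25.3% and 8.22%), and both held in 8 (7.82% and 1.26%). All of these values use the arrays that chose the probes, and are a description. Most of the 6 reference groups were at 15 °C. A level that is lower in warm fish therefore adds to the shortfall in water and takes from the excess in poly(I:C). In JFC24585 warm fish at 24 h (-1.53 in water, -1.30 with poly(I:C)) lay nearer to water (-2.17) than to poly(I:C) (0.23) at 3 h. Those of JFC23926 (-2.32 and -2.59) lay nearer to poly(I:C) (-2.15) than to water (-3.89).

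**Figure D2:**
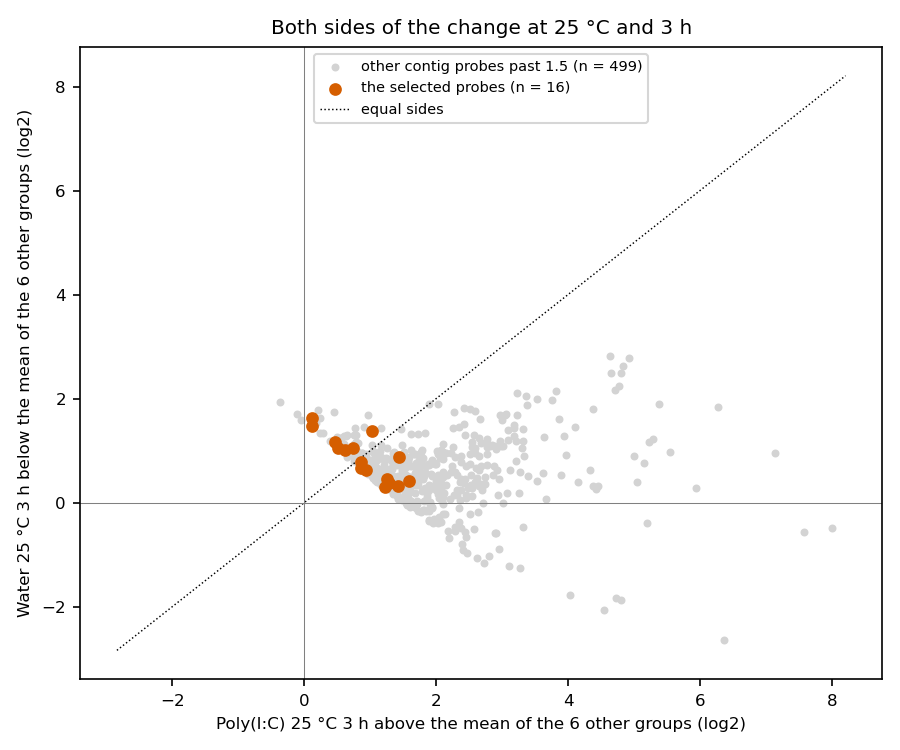
Each point is a contig probe with a change of at least 1.5 at 3 h and 25 °C. The x axis gives the level of poly(I:C) at 3 h and 25 °C above the mean of the 6 other groups and the y axis the level of water at 3 h and 25 °C below it, both in log2. Of the 16 selected probes (orange), 9 lie below the dotted line of equal sides and 7 above it, while most of the 499 others (grey) lie below it.

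The clearest case of a high poly(I:C) level was JFC13144. With poly(I:C) at 3 h and 25 °C its level was 0.32, 0.44 and 0.42 on the 3 arrays. In water at that temperature and time it was -1.40, -1.82 and -1.64. On the other 18 arrays it lay between -1.53 and -0.81, so the 3 arrays of warm poly(I:C) fish at 3 h stood above all 21 others. The change was 2.01 (4.03-fold), and the SD of the 3 poly(I:C) arrays was 0.061. By 24 h at 25 °C the level with poly(I:C) was back at -1.42 ± 0.09 (SD, n = 3), beside -1.28 ± 0.11 in water.

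JFC26312 had the same shape with more scatter. Its 3 poly(I:C) arrays at 3 h and 25 °C gave 0.38, 0.75 and 0.54, and the highest of the other 21 arrays, a water array at 24 h and 25 °C, gave -0.29. Water at 3 h and 25 °C gave -1.39, -0.64 and -1.52. Poly(I:C) at 24 h and 15 °C was the most scattered group, at -1.22, -0.62 and -2.12. Only 17.9% of the difference of 1.74 came from the low side.

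JFC08001 read 1.98, 2.05 and 1.82 with poly(I:C) and -0.13, 0.59 and 0.42 with water at 3 h and 25 °C. The poly(I:C) fish at 3 h and 15 °C came next, at 0.84, 1.32 and 1.02, all below the warm poly(I:C) arrays. JFC23484 read -1.70, -1.19 and -1.28 with poly(I:C) at 3 h and 25 °C, and its other 7 group means lay between -2.93 and -2.27. In both probes all 3 arrays of that group lay above the other 21.

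In 3 other probes with the larger contribution from poly(I:C), 1 array or signals near background mattered. JFC04672 read -3.59, -3.42 and -1.31 with poly(I:C) at 3 h and 25 °C against -4.24, -4.75 and -4.46 in water. Its change of 1.71 fell to 0.98 without replicate 3 of poly(I:C), and only 1 of the 3 water arrays was well above background. JFC07865 read -2.75, -2.46 and -3.43 with poly(I:C) while 0 of the 3 water arrays at 3 h and 25 °C had it well above background. Poly(I:C) was therefore at least 3.1-fold higher there, where the measured means (-2.88 and -5.21) differ by more. JFC16050 also had 0 of those water arrays well above background, and 2 of the 3 poly(I:C) arrays, which leaves at least 1.04-fold, so its place in the selection rests on signals near background.

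The remaining 2, JFC05502 and JFC06419, were well above background on all 24 arrays. JFC05502 had the tightest poly(I:C) arrays, at -0.36, -0.38 and -0.37, against -2.41, -1.54 and -1.76 in water. Its level in poly(I:C) fish at 24 h and 25 °C was -1.02 ± 0.02 (SD, n = 3) and in water -1.51 ± 0.26. It is the probe closest to a remaining difference at 24 h, at 0.49. JFC06419 read -2.18, -1.96 and -2.06 with poly(I:C) and -3.59, -3.95 and -3.33 with water at 3 h and 25 °C, while its poly(I:C) fish at 15 °C lay at -2.47 ± 0.57 (3 h) and -2.41 ± 0.46 (24 h). The warm poly(I:C) level of this probe at 3 h was thus only 0.34 above the next highest group.

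Among the 7 probes with a larger shortfall in water, JFC23926 and JFC22365 had an excess in poly(I:C) of only 0.12 each. JFC23926 read -3.98, -4.61 and -3.08 in water at 3 h and 25 °C, and its other 7 group means lay between -2.59 and -1.77. With poly(I:C) at 3 h and 25 °C it read -2.83, -1.92 and -1.69, inside the range of the other groups, so 93.2% of its change of 1.74 lay on the water side. JFC22365 read -0.20, 0.02 and 0.02 in that water group and 1.24, 1.32 and 2.02 with poly(I:C). Its poly(I:C) fish at 24 h and 15 °C were higher still, at 2.20, 1.77 and 1.77, and 92.6% of its change of 1.58 lay on the water side. In both probes the mean of the warm poly(I:C) fish at 3 h lay within the range of the cool groups, and that of the warm water fish at 3 h was the lowest of the 8. In JFC22365 the warm fish at 24 h, at 0.77 in water and 0.75 with poly(I:C), were also below all 4 cool groups.

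**Figure D3:**
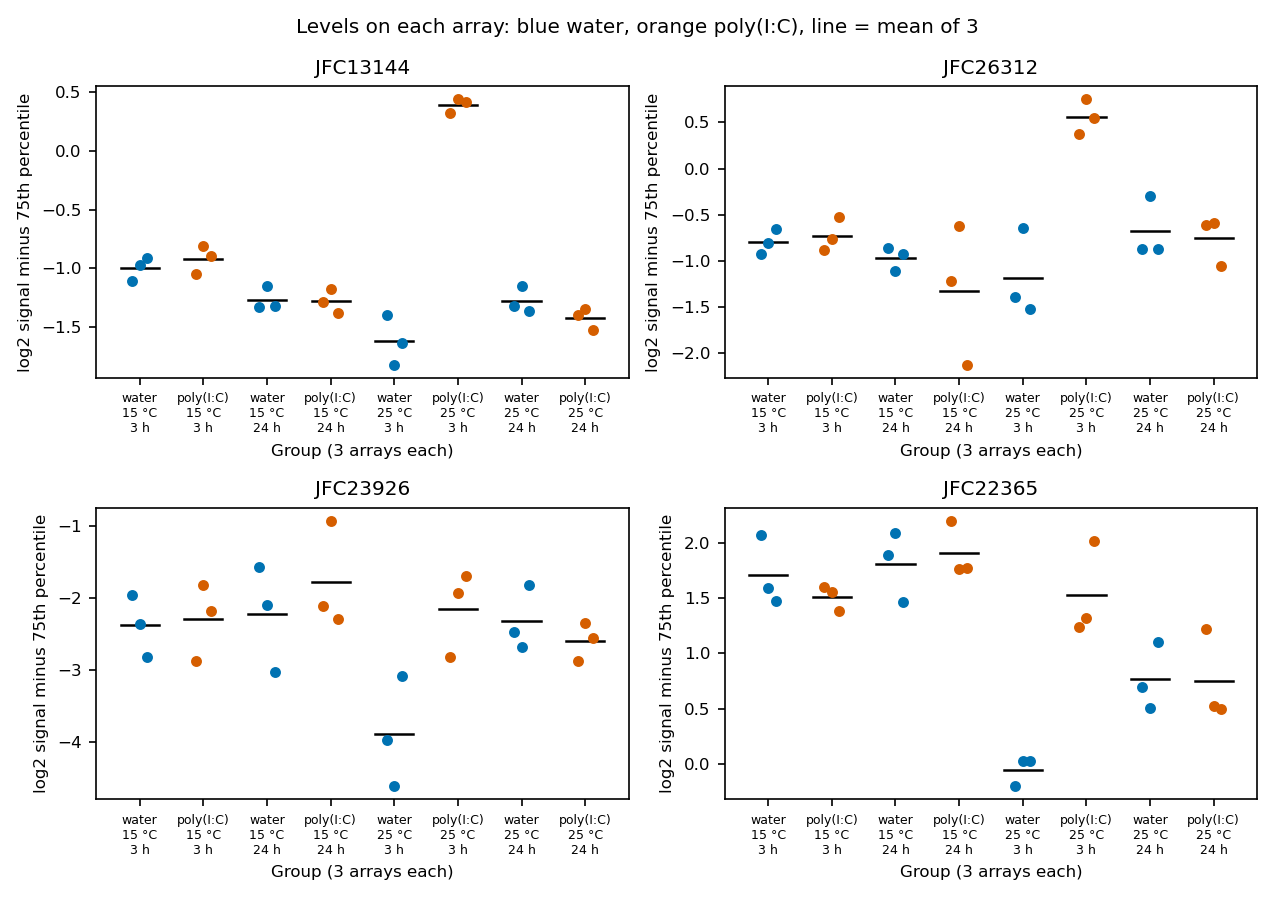
Log2 signal relative to the 75th percentile (y axis) on each array of the 8 groups (x axis) for 4 probes, with water in blue, poly(I:C) in orange and a line at each mean of 3 arrays. In JFC13144 and JFC26312 the poly(I:C) arrays at 3 h and 25 °C stand above all others, and in JFC23926 and JFC22365 the water arrays at 3 h and 25 °C have the lowest mean while poly(I:C) is not the highest.

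JFC26106 read -3.12, -3.03 and -2.88 in water at 3 h and 25 °C, below all 21 other arrays, which started at -2.38. With poly(I:C) it read -1.06, -1.25 and -1.36, above all 21 others, and its other 6 group means lay between -2.19 and -1.80. It therefore moved both ways at 3 h and 25 °C. JFC24585, the probe with the largest change (2.40), also did by group means: its water arrays at 3 h and 25 °C read -1.84, -2.06 and -2.61, and its poly(I:C) arrays read 0.48, 0.45 and -0.22. Its separation was less clear, since cool arrays at 3 h reached -0.011 in water and -0.11 with poly(I:C), above its lowest poly(I:C) array. A water array at 24 h and 25 °C read -1.80, next to its highest water array at 3 h.

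The remaining 3 probes, JFC27475, JFC09793 and JFC06108, had between 61.8% and 71.1% of their change on the water side, measured from the mean of the 6 other groups. Warm fish at 24 h read 0.78 (water) and 0.61 (poly(I:C)) for JFC27475, and -0.54 and -0.16 for JFC06108. These lay nearer to water at 3 h and 25 °C (0.24 and -0.91) than to poly(I:C) (1.87 and 0.66). Set against warm fish alone, the water side was thus not the larger in either. In JFC09793 they read -2.41 and -1.98, between water (-2.86) and poly(I:C) (-1.22). JFC27475 read 1.71, 1.78 and 2.12 with poly(I:C) and -0.01, 0.54 and 0.18 with water at 3 h and 25 °C, yet its fish at 24 h and 15 °C were nearly as high (1.76 ± 0.29 in water and 1.74 ± 0.34 with poly(I:C), SD, n = 3). JFC06108 had the least separated arrays, since its lowest poly(I:C) array (0.12) lay next to its highest water array (-0.02) at 3 h and 25 °C. The groups at 3 h and 25 °C did not overlap in any of the 16 probes, as in 20% of all tested probes in that direction, a separation that the selection itself favours.

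At 3 h the water groups at 15 °C and 25 °C both measured 14 of the 16 probes, that is, had them well above background on at least 1 array each. JFC16050 was below background on all 6 of these arrays and JFC07865 on the 3 warm ones, so neither has a measured difference. The warm water fish were lower than the cool water fish in all 14, with a median difference (25 °C minus 15 °C) of -0.93 against -0.0022 for all tested probes. In the 7 probes with the larger shortfall this difference ran from -1.84 to -1.04, and in the other 7 from -0.82 to -0.33. The shortfall is reckoned from the same warm water level and a mean that includes the cool water group, so this separation is largely built in. Among poly(I:C) fish at 3 h the 15 probes measured in both groups were higher at 25 °C, by 0.015 to 1.82. Of all tested probes 52.9% were lower at 25 °C there, and of the other 499 probes past 1.5 only 6.21% were. Both temperature differences at 3 h lay across slides, so temperature and slide cannot be told apart in them. Water at 25 °C was on slide 3 and at 15 °C on slides 1 and 2, and poly(I:C) at 25 °C on slide 2 and at 15 °C on slide 1. In water at 25 °C the level was higher at 24 h than at 3 h in 13 of the same 14 probes, by a median of 0.42 over the 14 (0.049 for all tested probes), and the 6 arrays of that difference lay on 1 slide. The selection favours a low water level and a high poly(I:C) level at 3 h and 25 °C, so these differences are not tested. That water group was also the most scattered one, with a median SD between arrays of 0.39 in the 16 probes and 0.27 in all tested probes, against 0.20 to 0.33 and 0.16 to 0.22 in the other groups.

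The limits of the selection set no direction for temperature at 24 h or time at 15 °C. Both were tested with limma over all 13377 tested probes with Benjamini-Hochberg adjustment. Where slides differ, the water test at 24 h is not free of the selection. Probes reading lower on slide 3 (water at 3 h and 25 °C) than on slide 2 (poly(I:C)) were favoured. That test sets slide 3 (25 °C) against slide 2 (15 °C), so a slide difference would also lower the result. In water at 24 h, 5 of the 16 probes were lower at 25 °C than at 15 °C and 0 were higher, where 10.4% of all tested probes were lower and 17.5% higher, 27.9% in all. The same 5 (JFC22365, JFC06419, JFC27475, JFC09793 and JFC24585) were lower in poly(I:C) fish at 24 h, where 22.7% of all tested probes were lower and 19.3% higher, 42% in all. Both effects are tied, since the selection keeps poly(I:C) and water close at 24 h. The median effect of the 16 was -0.30 in water (0.080 for all tested probes) and -0.61 with poly(I:C) (-0.038). At 25 °C 12 of the 16 were lower in water (43.1% of all tested probes) and 15 with poly(I:C) (52.4%), 12 of them in both. JFC16050, counted among these, had all 3 arrays well above background only in poly(I:C) at 24 h and 15 °C. It passed the background filter through that group alone, so its lower level at 25 °C with poly(I:C) was favoured. Only 1 of its 3 poly(I:C) arrays at 24 h and 25 °C was well above background.

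JFC22365 read 0.70, 0.50 and 1.11 in water at 24 h and 25 °C and 1.89, 2.09 and 1.46 at 15 °C, without overlap. It was lower at 25 °C by a log2 difference of -1.05 in water (SE 0.24, limma adjusted p = 0.0035) and of -1.17 with poly(I:C) (SE 0.24, limma adjusted p = 6.5e-04). JFC06419 differed by -1.03 in water (SE 0.33, limma adjusted p = 0.027) and by -1.32 with poly(I:C) (SE 0.33, limma adjusted p = 0.0035). Its call in water was lost without replicate 1 of water at 24 h and 15 °C, at -0.60 (limma adjusted p = 0.17), and without replicate 2 of water at 24 h and 25 °C, at -0.93 (limma adjusted p = 0.091). JFC27475, with -0.98 in water (SE 0.20, limma adjusted p = 0.0017) and -1.13 with poly(I:C) (SE 0.20, limma adjusted p = 1.9e-04), had the smallest adjusted p-values of the 16. Of the 5 probes, 4 belonged to the 7 with the larger shortfall in warm water fish at 3 h. That shortfall is reckoned from a mean that includes the groups tested here, so this overlap is partly built in.

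**Figure D4:**
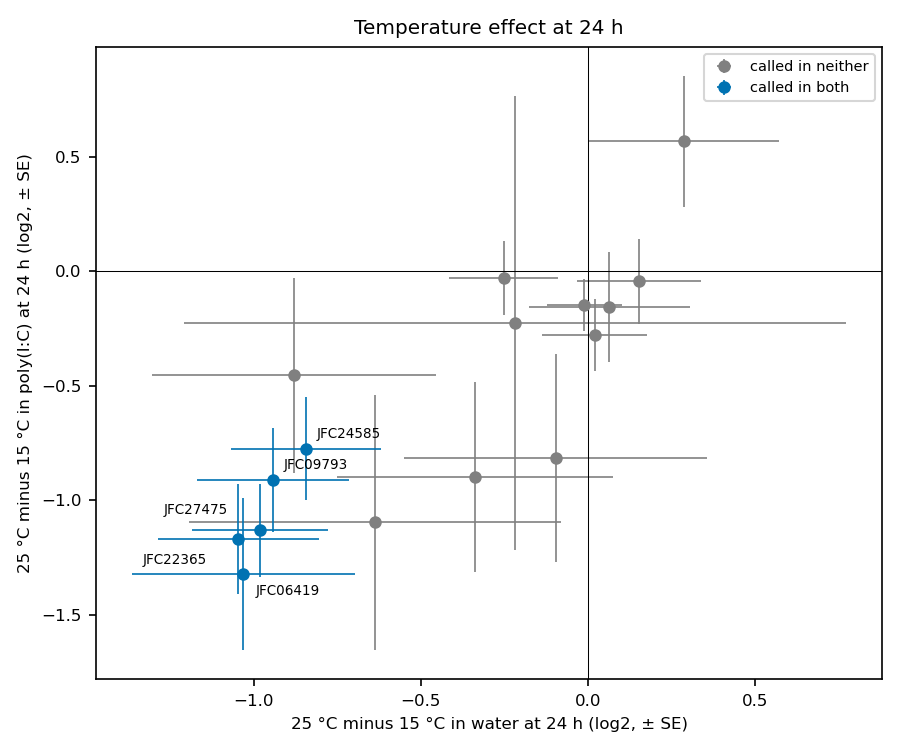
Temperature effect at 24 h, 25 °C minus 15 °C in log2, in water (x axis) and with poly(I:C) (y axis) for the 16 probes, with bars of 1 SE from the limma fit. The 5 probes called in both comparisons (blue) lie between -1.05 and -0.84 in water and between -1.32 and -0.77 with poly(I:C), and the other 11 (grey) were called in neither.

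No slide held both temperatures of a treatment at 24 h, so these temperature effects cannot be read within a slide. Water at 24 h and 15 °C lay on slide 2 and at 25 °C on slide 3, and poly(I:C) at 15 °C on slide 1 and at 25 °C on slides 2 and 3. In a fit with slide as a block, slides 2 and 3 were linked only by poly(I:C) at 24 h and 25 °C. That group had 1 array on slide 2 and 2 on slide 3. Slides 1 and 2 were linked only by water at 3 h and 15 °C, with 2 arrays and 1. The block estimates therefore rest on how 1 array differed from the others of its group. When slide was fitted as a block, the 5 probes had differences from -1.33 to -0.34 in water and from -1.84 to -0.080 with poly(I:C). Of these 5, 0 remained called in water (unadjusted p under 0.05 in 2 of the 16), where 1.6% of all tested probes were called. With poly(I:C) 1 remained called, beside 11% of all tested probes. JFC22365 shrank to -0.34 in water (SE 0.39, limma adjusted p = 0.74) and -0.33 with poly(I:C) (SE 0.45, limma adjusted p = 0.72), and JFC24585 with poly(I:C) to -0.080 (SE 0.45, limma adjusted p = 0.94). The 1 still called was JFC27475, at -1.68 (SE 0.42, limma adjusted p = 0.014). With the slide as a random block 5 were called in each comparison (23% of all tested probes in water and 39.1% with poly(I:C)). With normexp background correction 2 were called in each (5.54% and 19.1%). With normexp JFC06419 differed by 0.052 in water (limma adjusted p = 0.94) and by -0.19 with poly(I:C) (limma adjusted p = 0.77).

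Between 3 h and 24 h at 15 °C, 0 of the 16 probes were called in water by limma (2 at an unadjusted p under 0.05), where 0.0673% of all tested probes were higher at 24 h and 0.852% lower, 0.919% in all. With poly(I:C) at 15 °C, whose 6 arrays all lay on slide 1, 2 of the 16 were called, 1 higher and 1 lower, against 19.1% and 18.2% of all tested probes, 37.3% in all. JFC09793 was higher at 24 h by 0.66 (SE 0.23, limma adjusted p = 0.029), from -1.76, -1.91 and -1.51 to -1.23, -0.85 and -1.13. JFC13144 was lower by a difference of -0.36 (SE 0.11, limma adjusted p = 0.017). Neither call was stable: leaving out replicate 3 at 24 h, or replicate 2 at 3 h, left 0 of the 16 called, and leaving out replicate 1 at 3 h left 1. Between 31.9% and 32% of all tested probes were called in these fits. With the 2 groups alone in the fit, and with the arrays of slide 1 alone, 5 of the 16 were called, beside 38.5% and 38.1% of all tested probes.

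The change at 3 h and 25 °C itself was measured across slides, with all 3 poly(I:C) arrays on slide 2 and all 3 water arrays on slide 3. Of the groups, 2 bridged slides: poly(I:C) at 24 h and 25 °C had 1 array on slide 2 and 2 on slide 3, and water at 3 h and 15 °C had 2 on slide 1 and 1 on slide 2. In the first, the slide 2 array minus the mean of the slide 3 arrays gave a median of -0.013 over the 16 probes and ran from -0.84 to 0.71. The probe at the upper end was JFC22365, for which slide 2 read higher by 0.71 within a group. With the slide as a block the change was above 0 in all 16 probes and at least 1.5 in 13, with a median of 1.86 and a median SE of 0.41, against 0.24 without the block. It was 0.87 for JFC22365 and between 1 and 1.5 for JFC04672 (1.37) and JFC23484 (1.22). The block takes the difference of slides 2 and 3 from the first bridging group alone. The fall of JFC22365 with the block therefore restates the 0.71 of that 1 slide 2 array.

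**Figure D5:**
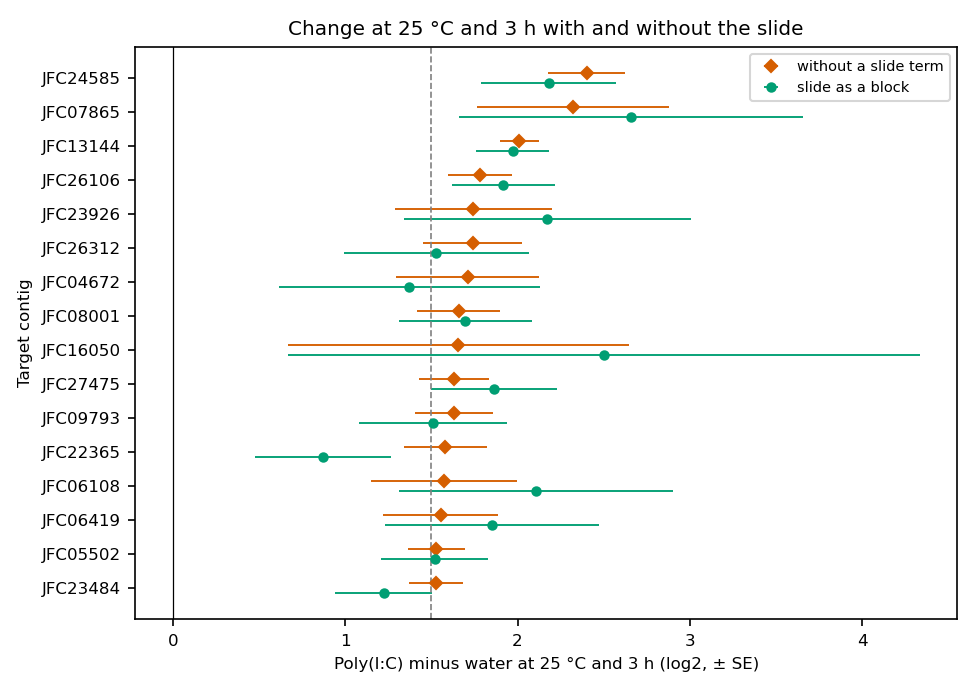
Poly(I:C) minus water at 3 h and 25 °C in log2 (x axis) for the 16 target contigs (y axis), without a slide term (diamonds) and with the slide as a block (circles), with bars of 1 SE. The dashed line marks 1.5. The values with the block run from 0.87 to 2.66 with wider bars, and 3 of them lie below the line.

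Under the same block the other 3 limits were less well kept. At 24 h and 15 °C, where both groups also lay on different slides, 5 of the 16 probes moved to a size of 0.5 or more, the largest being JFC07865 (1.55) and JFC08001 (1.01). The block moved these by the slide difference within water at 3 h and 15 °C (1.17 and 0.83), which has 1 array on slide 2. In JFC07865 a slide 1 array of that group (-6.07) was not well above background, so its value of 1.55 rests on signals near background. At 24 h and 25 °C 2 did, and at 3 h and 15 °C 1 did. All limits together were met by 7 of the 16 with the block. Within slide 2 alone, poly(I:C) at 3 h and 25 °C was above the 1 array of poly(I:C) at 24 h and 25 °C in all 16 probes (49.1% of all tested probes), by 0.31 (JFC22365) to 1.94 (JFC07865), and above the mean of water at 24 h and 15 °C in 15 of 16 (46.8%), by a median of 0.83. The probes were chosen for a high value on those same poly(I:C) arrays, so this direction was favoured by the choice.

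The selection was also repeated without 1 replicate number in all groups, and the 4 changes were then read in the 8 arrays left out. Without replicate 1, 19 probes were chosen, with a median change at 3 h and 25 °C of 1.69 in the arrays used and 1.17 in those left out. Without replicate 2 there were 15, with 1.72 and 1.09, and without replicate 3 there were 16, with 1.74 and 1.46. The change was above 0 in the left-out arrays for 18 of 19, 15 of 15 and 16 of 16 probes. It reached 1.5 in 6, 4 and 8 of them, and all 4 limits were met there by 2, 3 and 3. Of the 16 probes, 9, 5 and 8 were chosen again. These re-chosen sets held only some of the 16. Their median change at 3 h and 25 °C was smaller in the arrays left out than in those used. The left-out arrays shared their slides with the arrays used (poly(I:C) slide 2, water slide 3), so a slide difference would appear in both. The share of all tested probes above 0 in the left-out arrays was not determined, so the counts above 0 are a description only. The full pattern was seen there in few probes, with differences of single arrays and not of means of 3.

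Leaving out 1 array at a time, 4 of the 16 probes (JFC24585, JFC13144, JFC26106 and JFC27475) met every limit in all 24 cases, and JFC16050 did so in 12, the lowest number. With quantile scaling 9 of the 16 met the limits, with median scaling 13, and with normexp 6. JFC24585 and JFC13144 met them under all 3, with changes at 3 h and 25 °C of 1.82 and 1.51 with normexp. For all tested probes the median change at 3 h and 25 °C was -0.15 with the 75th percentile and 0.070 with median scaling.

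Over the 8 group means, the tested probes outside the selection most like its mean pattern were JFC11344 (Pearson r = 0.97) and JFC02324 (r = 0.95), with changes at 3 h and 25 °C of 0.68 and 0.73. The 16 probes themselves had r between 0.50 (JFC16050) and 0.95 (JFC24585) with that mean pattern. Each of the 16 is part of that mean and was selected for its shape, so their r is partly built in. These values rank likeness over 8 points that share arrays across probes, and are given as a description.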

How the data were processed

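The scanner files hold 1 intensity a spot, made with Agilent Feature Extraction 10.7.3.1, with background removed and arrays left unscaled, per the file headers (the submitters' processing notes give 9.5.3.1). The deposited table holds the authors' log2 values, whose method is not given in the sources used here. Set against the scanner values, 100% were within 0.02 of the 75th percentile scaling after 1 constant per probe, so scale and direction are those used here, while the centring stays unknown. Column medians ran from -0.16 to 0.11.

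The deposited log2 values chose the probes. For levels and tests, spots with outlier marks were left out, the spots of a probe were averaged in log2, and each array was centred on its 75th percentile. Group means of all 24 arrays were fitted to 13377 probes with limma 3.58.1 in R 4.3.3 (16 residual degrees of freedom) and called at an adjusted p under 0.05. The fit was tested on simulated data with independent noise and no slide difference, so that test cannot speak to the slides. A probe below background in 1 group has a bound only: the bright mean over a floor, which for each array is its dimmest signal well above background or, if higher, the probe's own. Contig codes are printed without the ending "_1_code". The probes, lists and tests were chosen with earlier results of these data known. Named probes are those with the largest changes, excesses, shortfalls or tested differences and those at the limits, which gave 13 of the 16, and JFC27475, JFC06108 and JFC04672 were added after their values were seen. Normexp used the median spot signal, as the files hold no mean, and an added constant of 50 units. Replicate numbers did not pair arrays (correlations of same-numbered deviations from -0.33 to 0.26). The number of arrays limits the precision.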

Additional observations from a re-analysis of the deposited data

How the results depend on the processing

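The number of probes meeting the rule (16) was 30 with median scaling (13 shared with the 16) and 25 with the slide as a block (7 shared). It was 87 with a minimum of 1, 3 with a minimum of 2 and 5 with the other changes below 0.3, since these widen or narrow the limits. With quantile scaling it was 20 (9 shared) and with normexp 14 (6 shared), so similar counts held other probes. Leaving out 1 array gave 13 to 21, and leaving out 1 replicate number 15 to 19. The median change of the 16 probes at 25 °C and 3 h (1.66) was 1.24 with normexp and 1.62 to 1.78 with 1 array left out. For temperature at 24 h, the 5 calls became 2 with normexp in water and 2 with poly(I:C), and, once slide was a block, 0 and 1. Of all tested probes, 5.54% (water) and 19.1% (poly(I:C)) were called with normexp, and 1.6% and 11% with the block. With 1 array left out the calls among the 16 were 4 to 5 and 5 to 6, beside 20.2% to 23.2% and 34.4% to 41% of all tested probes. With normexp JFC06419 turned to 0.052 in water and shrank to -0.19 with poly(I:C). For time at 15 °C with poly(I:C), the 2 calls became 0 at an adjusted p under 0.01, 0 with normexp, 5 with only the groups compared and 5 within slide 1. Of all tested probes, 26.5%, 16.8%, 38.5% and 38.1% were called in these settings, in the same order. With 1 array left out the calls among the 16 were 0 to 3, beside 31.9% to 32.9% of all tested probes. For time at 15 °C in water 0 were called in each of these settings, where 0.112% to 1.96% of all tested probes were called. The replicate block gave 5, 5, 0 and 2 calls and changed no call among the 16, beside 26.9%, 41.3%, 0.919% and 36.6% of all tested probes. The cause of these differences was not tested. Signal over background limits 4 of the 16 probes, which were below it on some arrays. The normexp setting differed from the main one in its background removal, in an added constant of 50 units and in its use of the median spot signal. Which of these lowered the changes was not tested. With normexp the change at 25 °C and 3 h stayed above 0 in all 16 but was under 1.5 in 10. Among these was JFC23484 (0.77), which was well above background on all 24 arrays.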
